A study of Homo sapiens with 15 samples.

Results

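The genes described are 39 interferon-stimulated genes and RNA sensors, read from polyadenylated RNA of A375, an established human melanoma cell line, in 15 libraries. They were chosen by gene name, by a rule that uses no measured value, although earlier results of these data were known. All 39 are among the 20332 genes of the table for the serum groups and among the 20323 genes of the tables for the overexpression groups. The libraries form 5 groups of 3: A375 cells in 10% FBS, A375 cells starved in 0.1% FBS for 48 hours, and A375 cells given, for 48 hours, a control vector, MKL1 or caMKL1 for overexpression. MKL1 (approved symbol MRTFA) is an actin-regulated coactivator of serum response factor, SRF, and caMKL1 is its constitutively active form. The sources used here do not give how the vectors were delivered, whether the cells were pools or clones, or what alters caMKL1. The serum level of the overexpression groups is also not given. No cell type other than A375 and no infection or interferon treatment is named for any group.

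Cells sense foreign RNA with the helicases RIG-I (gene DDX58, approved symbol RIGI) and MDA5 (IFIH1), which signal through MAVS to the factors IRF3 and IRF7 and so switch on interferon genes. Secreted type I interferon acts through its receptor on a transcription factor complex that contains STAT2 and IRF9 and binds the interferon-stimulated response element (ISRE) in front of antiviral genes such as the IFIT, IFITM, OAS and MX families. Tumour cells often express part of this set without added interferon, and the products bear on antiviral defence, on growth and on how lymphocytes meet the tumour.

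Promoters are shown for the 5 members that rose most strongly with caMKL1 (defined below) and for 2 members that passed the test in no comparison, so that the sequence in front of each kind can be read. Each runs 5′ to 3′ on the gene's strand from 250 bases before to 50 bases after the RefSeq start (GRCh38.p14). Capitals mark the ISRE core, read as GAAANNGAAA or on the other strand TTTCNNTTTC, and the CArG box, the SRF-binding motif, which was searched by its name's usual consensus on both strands.
DDX58 (chr9:32526147-32526446, minus strand): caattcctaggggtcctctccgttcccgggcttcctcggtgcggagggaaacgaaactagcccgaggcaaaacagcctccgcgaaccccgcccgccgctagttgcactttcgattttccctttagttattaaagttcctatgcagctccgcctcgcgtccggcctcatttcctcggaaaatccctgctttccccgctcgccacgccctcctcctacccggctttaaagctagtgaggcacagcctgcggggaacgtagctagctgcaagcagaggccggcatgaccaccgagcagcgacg
ISG15 (chr1:1013247-1013546, plus strand): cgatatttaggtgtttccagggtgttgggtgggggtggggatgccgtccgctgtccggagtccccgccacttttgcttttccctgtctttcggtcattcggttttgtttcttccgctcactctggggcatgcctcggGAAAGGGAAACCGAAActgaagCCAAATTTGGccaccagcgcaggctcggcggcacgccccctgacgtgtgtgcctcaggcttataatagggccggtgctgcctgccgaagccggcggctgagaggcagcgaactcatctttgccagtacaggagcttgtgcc
SAMD9L (chr7:93148336-93148635, minus strand): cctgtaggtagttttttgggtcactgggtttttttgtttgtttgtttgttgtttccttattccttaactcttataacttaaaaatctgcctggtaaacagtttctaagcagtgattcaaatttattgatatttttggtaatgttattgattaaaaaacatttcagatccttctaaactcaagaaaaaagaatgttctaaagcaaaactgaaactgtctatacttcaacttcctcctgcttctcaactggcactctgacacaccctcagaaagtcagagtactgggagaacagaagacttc
IRF9 (chr14:24161015-24161314, plus strand): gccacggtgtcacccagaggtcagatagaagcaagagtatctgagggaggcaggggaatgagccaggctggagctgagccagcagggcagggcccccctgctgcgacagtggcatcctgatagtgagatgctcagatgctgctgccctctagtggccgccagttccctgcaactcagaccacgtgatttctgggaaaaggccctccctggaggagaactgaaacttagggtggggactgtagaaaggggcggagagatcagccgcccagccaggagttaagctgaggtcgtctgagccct
IFI6 (chr1:27672143-27672442, minus strand): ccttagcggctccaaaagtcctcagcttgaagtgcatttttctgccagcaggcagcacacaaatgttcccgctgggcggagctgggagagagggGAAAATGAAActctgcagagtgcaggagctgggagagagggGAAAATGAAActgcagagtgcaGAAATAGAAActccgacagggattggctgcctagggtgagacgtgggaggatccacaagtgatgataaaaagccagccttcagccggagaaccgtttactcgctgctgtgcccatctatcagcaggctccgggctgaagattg
DDX60 (chr4:168318703-168319002, minus strand): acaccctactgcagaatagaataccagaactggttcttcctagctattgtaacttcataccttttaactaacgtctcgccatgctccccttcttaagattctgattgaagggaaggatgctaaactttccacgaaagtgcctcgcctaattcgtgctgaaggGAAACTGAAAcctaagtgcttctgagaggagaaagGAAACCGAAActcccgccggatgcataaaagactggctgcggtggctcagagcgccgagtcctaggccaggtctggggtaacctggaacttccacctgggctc
IFIT3 (chr10:89327747-89328046, plus strand): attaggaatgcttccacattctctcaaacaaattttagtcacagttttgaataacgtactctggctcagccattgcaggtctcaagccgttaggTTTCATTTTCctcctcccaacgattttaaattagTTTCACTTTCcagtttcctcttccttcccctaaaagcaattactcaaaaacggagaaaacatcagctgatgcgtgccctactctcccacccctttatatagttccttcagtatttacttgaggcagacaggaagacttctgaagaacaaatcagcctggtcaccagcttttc
The ISRE core lay in the windows of IFI6, at bases -156, -115 and -93 from the start, of ISG15, in overlapping copies at -113 and -107, and of DDX60 and IFIT3. Those letters were not in the windows of DDX58, SAMD9L or IRF9. The ISG15 window also held a CArG box at -91, the only one among the windows of members. A RefSeq window was at hand for 29 of the 39 members, 37 windows in all. Of these 37 windows 67.6% held an ISRE core against 3.57% of all 35116 promoter windows, and 29.7% held the STAT-binding motif TTCNNNGAA (GAS), of which IRF9 had a copy at -63, against 7.66% of all windows. The CArG box was in 1.29% of all windows. A match is a description of letters, not of a site in use.

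Total counts per library lay between 13937251 and 23957043, so that 3 counts in a library corresponded to 0.125 to 0.215 CPM, the count scaled to library size. Nothing in the labels says that replicates came from separate cultures, so p-values measure only the spread between these libraries, which may be technical. MRTFA was at 25.7 to 26.2 CPM with the control vector, 709 to 771 CPM in the libraries labelled MKL1 and 463 to 481 CPM in those labelled caMKL1. Of the melanoma markers, SOX10 (416 to 990 CPM) and PRAME (129 to 216 CPM) were high in all 15 libraries, whereas the pigment-cell genes MLANA (0.120 to 1.22 CPM), PMEL (0.185 to 0.890 CPM) and TYR (0 to 0.0977 CPM) were near 0. In bulk RNA, fewer cells that express a gene and less RNA per cell cannot be told apart. The sources used here do not say whether counting used strand, so reads of overlapping genes may be shared. Among members with a stated change, IRF9 shares 48.4% of its exonic bases with AL136295.5 on the same strand (GENCODE 29), and XAF1 shares 38.3% with PRAL, IRF3 19.3% with BCL2L12 and IRF1 22.0% with C5orf56 on the opposite strand. IFITM1 shares 32.5% with IFITM2 on the same strand, and IFITM3 shares 21.3% with AC136475.5 on the opposite strand. IFITM1, IFITM2 and IFITM3 are also near copies that can exchange reads.

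A large part of the set was transcribed in A375 cells in 10% FBS and in those given the control vector. On the deposited FPKM scale, which allows levels of different genes to be compared, 12 members had a mean of at least 10 FPKM in 10% FBS, 21 lay between 1 and 10 FPKM and 6 lay under 1 FPKM, with a median of 6.03 FPKM. With the control vector the numbers were 10, 20 and 9 members and the median was 3.88 FPKM. The serum and overexpression tables were normalized separately, and these levels were not tested against each other. IFITM3, a membrane protein that restricts virus entry, led the set at 293 ± 25.0 FPKM in 10% FBS and 304 ± 24.7 FPKM with the control vector (SD, n = 3 each). Next by mean with the control vector came IFITM2 (33.8 ± 4.06 FPKM) and IRF3 (33.1 ± 1.5 FPKM). The GTPase gene MX2 (27.5 ± 2.2 FPKM) and the exonuclease gene ISG20 (26.7 ± 0.299 FPKM) followed. Within each of these pairs the libraries overlapped, and those of MX2 also overlapped those of IFITM2. The sensors were low with the control vector: DHX58 was at 1.93 ± 0.163, IFIH1 at 0.994 ± 0.342, DDX60 at 0.686 ± 0.0800 and DDX58 at 0.590 ± 0.203 FPKM. Their order below DHX58 was not resolved there, since the libraries of IFIH1, DDX60 and DDX58 overlapped. In 10% FBS the sensors did not overlap. DHX58 was at 4.23 ± 0.407, DDX58 at 2.02 ± 0.161, IFIH1 at 1.64 ± 0.0968 and DDX60 at 0.919 ± 0.0469 FPKM.

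**Figure D1:**
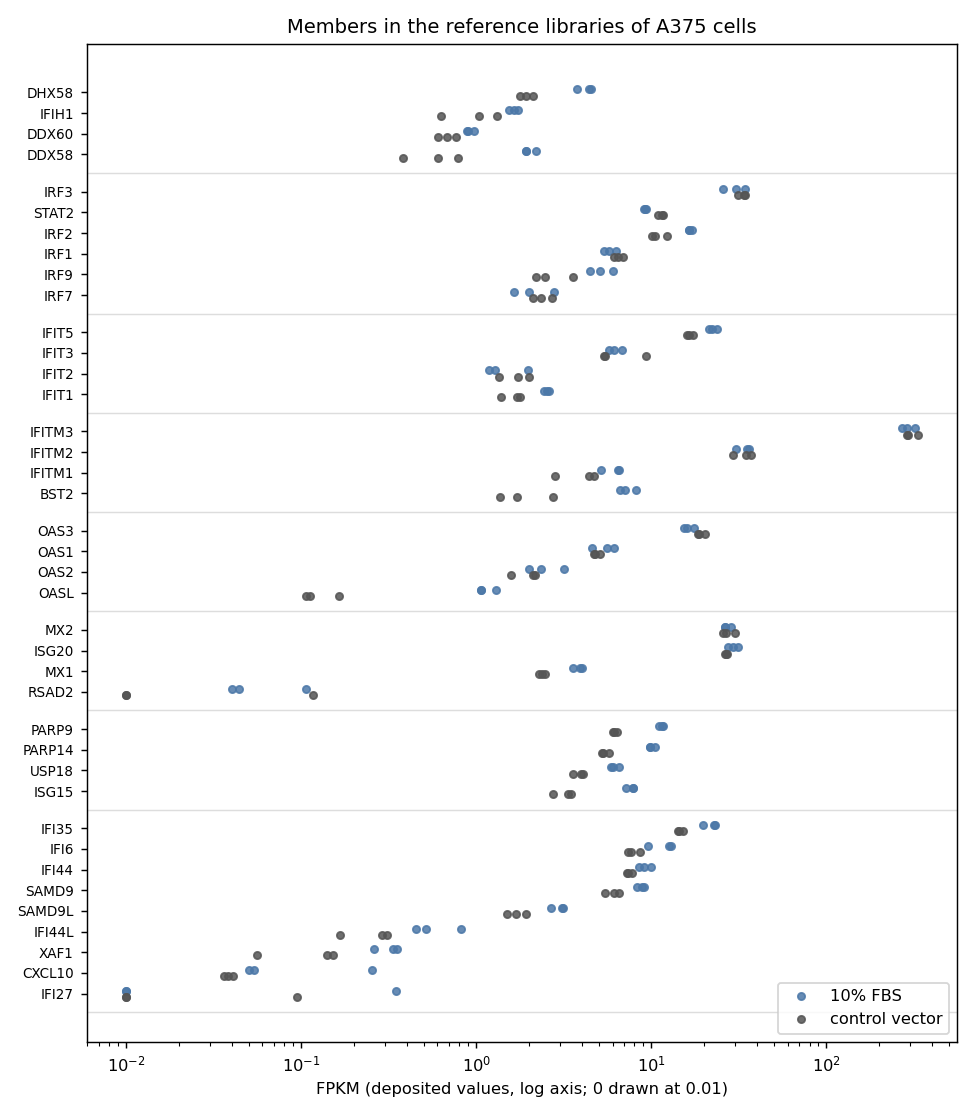
Deposited FPKM (log axis, 0 drawn at 0.01) of the 39 members in the 3 libraries of 10% FBS and the 3 of the control vector, 1 point per library, grouped by role. IFITM3 stands at 270 to 333 FPKM, whereas RSAD2, IFI27, CXCL10, XAF1, IFI44L and DDX60 lie under 1 FPKM in every library shown.

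Several classical markers of an interferon response were close to silent. RSAD2 (viperin), IFI27 and the chemokine gene CXCL10 did not pass the filter on low counts in any comparison, OASL passed it only in the serum groups, and XAF1 did not pass it in the MKL1 comparison. RSAD2 was at 0 to 0.337 CPM in the control vector libraries and at 0.0574 to 0.195 CPM with caMKL1, but at 0.169, 2.02 and 0 CPM in the MKL1 libraries. CXCL10 was likewise at 0.530 CPM in MKL1 replicate 2 and at 0.0824 CPM or less in the other overexpression libraries. Both genes were thus highest in MKL1 replicate 2. In the serum groups RSAD2 read 0.117, 0.421 and 0.128 CPM in 10% FBS against 0.297, 0.599 and 0.854 CPM in 0.1% FBS, with overlap, and CXCL10 0.300 CPM in 10% FBS replicate 2 and 0.0712 CPM or less in the others. The alternatives that tested RSAD2 there, 6 in number, gave adjusted p from 0.0256 to 0.220. IFI27 counts were 0, 1 and 0 (control vector), 0, 2 and 0 (MKL1) and 4, 5 and 7 (caMKL1). With no filter on low counts IFI27 passed the test with caMKL1 (adjusted p = 0.00316, quasi-likelihood F test of edgeR), and with DESeq2 its adjusted p was 0.0143. For caMKL1 against MKL1 the adjusted p without the filter and with DESeq2 were 0.0127 and 0.0565 for IFI27, which was higher, 0.0146 and 0.0321 for CXCL10, which was lower, and 0.0416 and 0.357 for RSAD2, which was lower. MKL1 replicate 2 held 42 counts of RSAD2 and 11 of CXCL10, against 4 or fewer in each of the other MKL1 libraries.

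The caMKL1 comparison asks what the active coactivator changed relative to the control vector. A few members rose strongly, and the other tested members moved in both directions by smaller amounts. The exception was XAF1, which rose by a log2 fold change of 1.57 but stayed under 1 CPM. At 1 CPM or more, DDX58, which encodes the RNA sensor RIG-I, rose most, followed by ISG15, SAMD9L, IRF9 and IFI6. Of 35 members tested 13 rose and 9 fell (37.1% and 25.7%), against 30.5% higher and 33.1% lower among all 13558 genes tested (quasi-likelihood F test of edgeR, adjusted p under 0.05). The share of members that passed the test in either direction, 62.9%, lay beside 63.6% of all genes, and groups did not overlap in 25 members against 67.8% of all genes. The median log2 fold change was -0.01 for members and -0.02 for all genes. A strong riser was defined as a member with an adjusted p under 0.05, a log2 fold change of at least 1 and a mean of at least 1 CPM in either group. A called log2 fold change of at least 1 was found for 8.02% of all genes, and for the 5 strong risers and XAF1 among the members. At -1 or less it was found for 1.44% of all genes and for no member. The strong risers were picked by this same comparison, so their rise is given as a description.

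DDX58 (ENSG00000107201, GRCh38 chromosome 9, 32455705 to 32526324) read 3.34, 1.73 and 2.55 CPM in the control vector libraries. The MKL1 libraries read 4.91, 5.88 and 2.88 CPM, and the caMKL1 libraries 53.3, 56.8 and 58.2 CPM. All 3 caMKL1 libraries stood far above the other 6, whose ranges overlapped each other. The log2 fold change was 4.45 ± 0.121 (SE; adjusted p = 3.99e-13, quasi-likelihood F test of edgeR, Benjamini-Hochberg). On the FPKM scale the gene went from 0.590 ± 0.203 to 13.6 ± 0.580 FPKM, above IFIH1, DHX58 and DDX60. The overexpression tables list a second identifier for DDX58, ENSG00000288684, whose counts were 0, 36 and 28 (control vector), 7, 0 and 71 (MKL1) and 53, 69 and 26 (caMKL1). Summed over both identifiers the libraries drew together, to 3.34, 3.47 and 3.73 CPM (control vector), 5.20, 5.88 and 5.81 CPM (MKL1) and 55.9, 60.8 and 59.8 CPM (caMKL1). The 3 groups did not overlap on this sum, which was made after the values were seen, and its log2 fold changes were 4.06 with caMKL1 (adjusted p = 1.08e-14) and 0.70 with MKL1 (adjusted p = 0.00172).

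ISG15 (ENSG00000187608, chromosome 1, 1001138 to 1014540), a ubiquitin-like protein that is attached to other proteins or secreted, read 1.76, 2.22 and 2.14 CPM in the control vector libraries and 10.6, 9.52 and 11.2 CPM in those of caMKL1. Its log2 fold change was 2.36 ± 0.137 (adjusted p = 2.38e-09, quasi-likelihood F test of edgeR). The MKL1 libraries, at 3.00, 2.51 and 2.35 CPM, lay just above the control libraries and far below caMKL1. SAMD9L (ENSG00000177409, chromosome 7, 93130055 to 93148369), an antiviral and growth-restraining protein, went from 8.38, 9.97 and 9.34 CPM to 22.5, 24.1 and 25.6 CPM, a log2 fold change of 1.38 ± 0.0869. IRF9 (ENSG00000213928, chromosome 14, 24161053 to 24166565), the DNA-binding subunit of that complex, went from 2.84, 3.66 and 3.98 CPM to 9.08, 6.94 and 7.41 CPM, a log2 fold change of 1.17 ± 0.153. Its partner gene STAT2 did not follow: it read 42.7, 39.6 and 41.1 CPM with caMKL1 against 45.4, 45.2 and 43.9 CPM and did not pass (adjusted p = 0.0672, quasi-likelihood F test of edgeR). IFI6 (ENSG00000126709, chromosome 1, 27666061 to 27672218), a small hydrophobic protein with anti-apoptotic activity, went from 6.36, 6.99 and 6.03 CPM to 13.5, 11.8 and 13.3 CPM. At a log2 fold change of 1.00 ± 0.101, IFI6 stood at the edge of the definition, and its value ranged from 0.95 to 1.06 over the alternatives, all of which kept the call. Just outside lay IFIH1 (0.87) and OAS2 (0.81), and XAF1 (1.57), whose levels stayed under 1 CPM. The serum groups were normalized separately and not tested against these groups. In 10% FBS the means were 8.59 (DDX58), 4.92 (ISG15), 18.6 (SAMD9L), 9.28 (IRF9) and 9.68 CPM (IFI6). Each lay above its control vector mean, at 2.54, 2.04, 9.23, 3.49 and 6.46 CPM. With caMKL1 the IRF9 mean, 7.81 CPM, lay below its 10% FBS mean. Those of the other strong risers lay above.

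**Figure D2:**
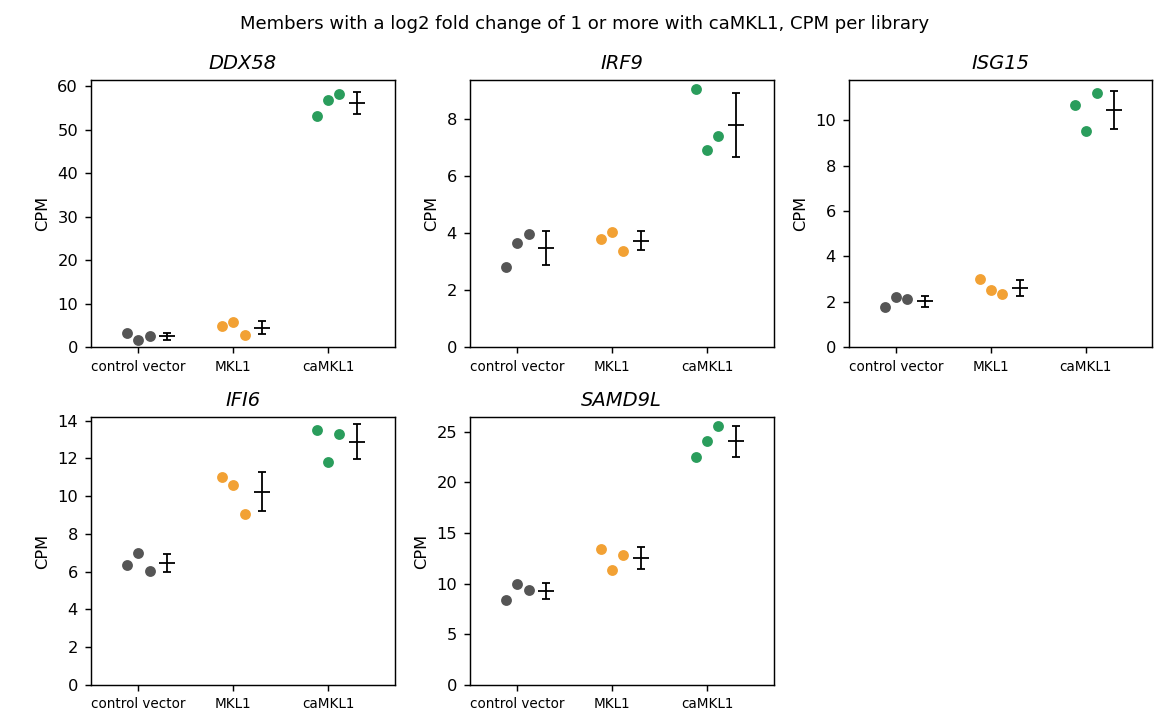
CPM per library of the 5 strong risers with the control vector, MKL1 and caMKL1 (points, 3 libraries per group; bars, mean and SD). In each panel the 3 caMKL1 libraries lie above all control vector libraries, from 53.3 to 58.2 against 1.73 to 3.34 CPM for DDX58 and from 11.8 to 13.5 against 6.03 to 6.99 CPM for IFI6.

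The other 30 tested members had a median log2 fold change of -0.07 with caMKL1, 8 of them rose and 9 fell, and 20 lay within 0.5 of no change on the log2 scale. Among the sensors IFIH1 rose (0.87 ± 0.212; 1.85 to 3.22 CPM with the control vector and 3.73 to 5.52 CPM with caMKL1), whereas DHX58, a regulator of both sensors, and the helicase gene DDX60 did not pass the test (0.05 and 0.16). Of the transcription factors IRF1 (-0.61 ± 0.0958), IRF3 (-0.28 ± 0.0606) and IRF7 (-0.74 ± 0.167) fell while IRF9 rose. IRF7, which amplifies interferon transcription, went from 4.37, 3.71 and 5.11 CPM to 2.59, 2.70 and 2.66 CPM, without overlap. IRF1, a broad activator, went from 11.1, 11.3 and 10.8 CPM to 7.76, 6.77 and 7.16 CPM, and IRF3 from 45.2 to 47.6 CPM to 36.2 to 40.6 CPM. The RNA-binding IFIT family moved down or not at all: IFIT2 (-0.52 ± 0.136) and IFIT5 (-0.27 ± 0.0764; 39.4 to 48.0 against 34.5 to 39.2 CPM) fell, and IFIT1 (-0.14) and IFIT3 (-0.16) did not pass. IFITM1 (-0.96 ± 0.261) and IFITM3 (-0.18 ± 0.0588) fell, while IFITM2 (-0.13) and the virion tether gene BST2 (-0.17) did not pass. The OAS enzymes sense double-stranded RNA and make oligoadenylates. OAS2 rose (0.81 ± 0.115; 5.86 to 7.47 against 10.9 to 13.0 CPM), OAS1 rose by less (0.26 ± 0.0890; 9.63 to 10.5 against 11.2 to 12.6 CPM) and OAS3, the highest of them in FPKM, did not pass (-0.02 ± 0.0485; 99.1 to 110 against 100.5 to 104 CPM).

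MX1 rose with caMKL1 (0.51 ± 0.112; 6.67 to 6.99 against 8.52 to 10.9 CPM) and MX2 did not pass (0.06). ISG20, an exonuclease of single-stranded RNA, fell from 26.5, 27.1 and 26.1 CPM to 14.7, 13.4 and 16.5 CPM, a log2 fold change of -0.84 ± 0.0787 (adjusted p = 4.25e-07, quasi-likelihood F test of edgeR). Beside ISG15, the ADP-ribosyltransferase genes PARP9 (0.42 ± 0.0647; 26.2 to 27.0 against 32.9 to 37.2 CPM) and PARP14 (0.60 ± 0.0594) rose, and USP18, the protease that removes ISG15, did not pass (-0.01 ± 0.128). SAMD9, the neighbour of SAMD9L, rose from 35.8, 40.4 and 44.3 CPM to 55.3, 57.4 and 57.1 CPM (0.49 ± 0.0695). XAF1 rose at a low level, from 0.316, 0.193 and 0.293 CPM to 0.928, 0.688 and 0.803 CPM (1.57 ± 0.368). IFI44 fell (-0.31 ± 0.109; 11.5 to 13.1 against 8.09 to 10.8 CPM), and IFI35 (-0.02; 17.4 to 18.6 against 16.9 to 18.9 CPM) and IFI44L (-0.28) did not pass. The calls for 3 of the 22 members depended on a setting: IFITM3 was lost without control vector replicate 1 (-0.08) or caMKL1 replicate 2 (-0.15), OAS1 without control vector replicate 2 or 3 or caMKL1 replicate 1 or 3 (0.22 to 0.25), and IFI44 without control vector replicate 3 (-0.26) or caMKL1 replicate 3 (-0.20). OAS1 and IFI44 were also lost with DESeq2 (adjusted p = 0.0957 and 0.0800).

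MKL1 itself, compared with the same control libraries, moved the set by smaller amounts and mostly upward. Of 34 members tested 13 rose and 4 fell (38.2% and 11.8%), against 15.8% higher and 15.4% lower of the 13409 genes tested, and the median log2 fold change was 0.19 for members and 0.01 for all genes. The groups did not overlap in 19 members, against 46.4% of all genes. No member met the definition of a strong riser, against 1.01% of all genes called at a log2 fold change of at least 1, and 0.313% at -1 or less. These counts were lower when 1 library was left out: without MKL1 replicate 1 there were 7 risers and without MKL1 replicate 3 there were 8. Only 2 members fell without control vector replicate 2, MKL1 replicate 1 or MKL1 replicate 3. Fewer libraries enter such fits, and over all genes they called 2595 to 4094 genes against 4182. Scaled by library totals, 13 members rose and 2 fell, and over all genes 2534 rose and 1683 fell against 2114 and 2068 with TMM scaling. Only calls that held in every alternative are named as changes in the following sentences unless stated, and there were 8 of 17.

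The sensor IFIH1 rose with MKL1 (0.79 ± 0.197), from 1.85, 2.99 and 3.22 CPM to 4.78, 3.90 and 5.07 CPM. The DDX58 call with MKL1 (0.84 ± 0.259) was lost without control vector replicate 2 (0.63), MKL1 replicate 1 (0.78) or MKL1 replicate 2 (0.63), and its libraries overlapped. IFI6 rose from 6.36, 6.99 and 6.03 CPM to 11.0, 10.6 and 9.07 CPM (0.68 ± 0.110; adjusted p = 0.000543, quasi-likelihood F test of edgeR), which placed MKL1 between the control vector and caMKL1. SAMD9L (0.46 ± 0.0989), SAMD9 (0.42 ± 0.0715), OAS1 (0.43 ± 0.0825) and PARP14 (0.34 ± 0.0565) also rose. IRF7 (-0.66 ± 0.162; 2.79, 2.70 and 2.76 CPM with MKL1) and IFITM1 (-0.87 ± 0.231; 1.40, 1.35 and 1.36 CPM against 2.93, 1.78 and 2.85 CPM) fell. ISG15 (0.38 ± 0.195, adjusted p = 0.150) and IRF9 (0.11 ± 0.166, adjusted p = 0.635), both strong risers with caMKL1, did not pass with MKL1.

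The remaining MKL1 calls each failed under some alternative. STAT2 (0.22) was lost without MKL1 replicate 3 (0.18), IRF2 (0.25) and IFI35 (0.29) without control vector replicate 2 or MKL1 replicate 1 or 3 (0.19 to 0.24 and 0.25). IFIT1 (0.36) was lost without control vector replicate 1 (0.25), MKL1 replicate 1 (0.31) or MKL1 replicate 3 (0.37), and OAS2 (0.35) without control vector replicate 3 (0.23) or any 1 MKL1 library (0.32 to 0.36). MX1 (0.33) was lost without any 1 control vector library or MKL1 replicate 1 or 2 (0.27 to 0.34). IRF1 (-0.32) was lost without control vector replicate 1 or 2 or MKL1 replicate 1 or 3 (-0.32 to -0.25), and OAS3 (-0.15) without control vector replicate 1 or 2 or any 1 MKL1 library (-0.16 to -0.11); both were also lost with library totals (-0.29 and -0.12). With DESeq2, IRF1, IFIT1, OAS2 and MX1 did not pass (adjusted p from 0.0889 to 0.124). Members that did not pass included DHX58 (0.24), DDX60 (0.16), IRF3 (0.03), IFIT2 (0.29), IFIT3 (-0.03), IFIT5 (-0.05), IFITM2 (0.06), IFITM3 (0.02), BST2 (-0.60), MX2 (0.03), ISG20 (0.06), USP18 (-0.06), PARP9 (0.16), IFI44 (-0.02) and IFI44L (0.42).

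**Figure D3:**
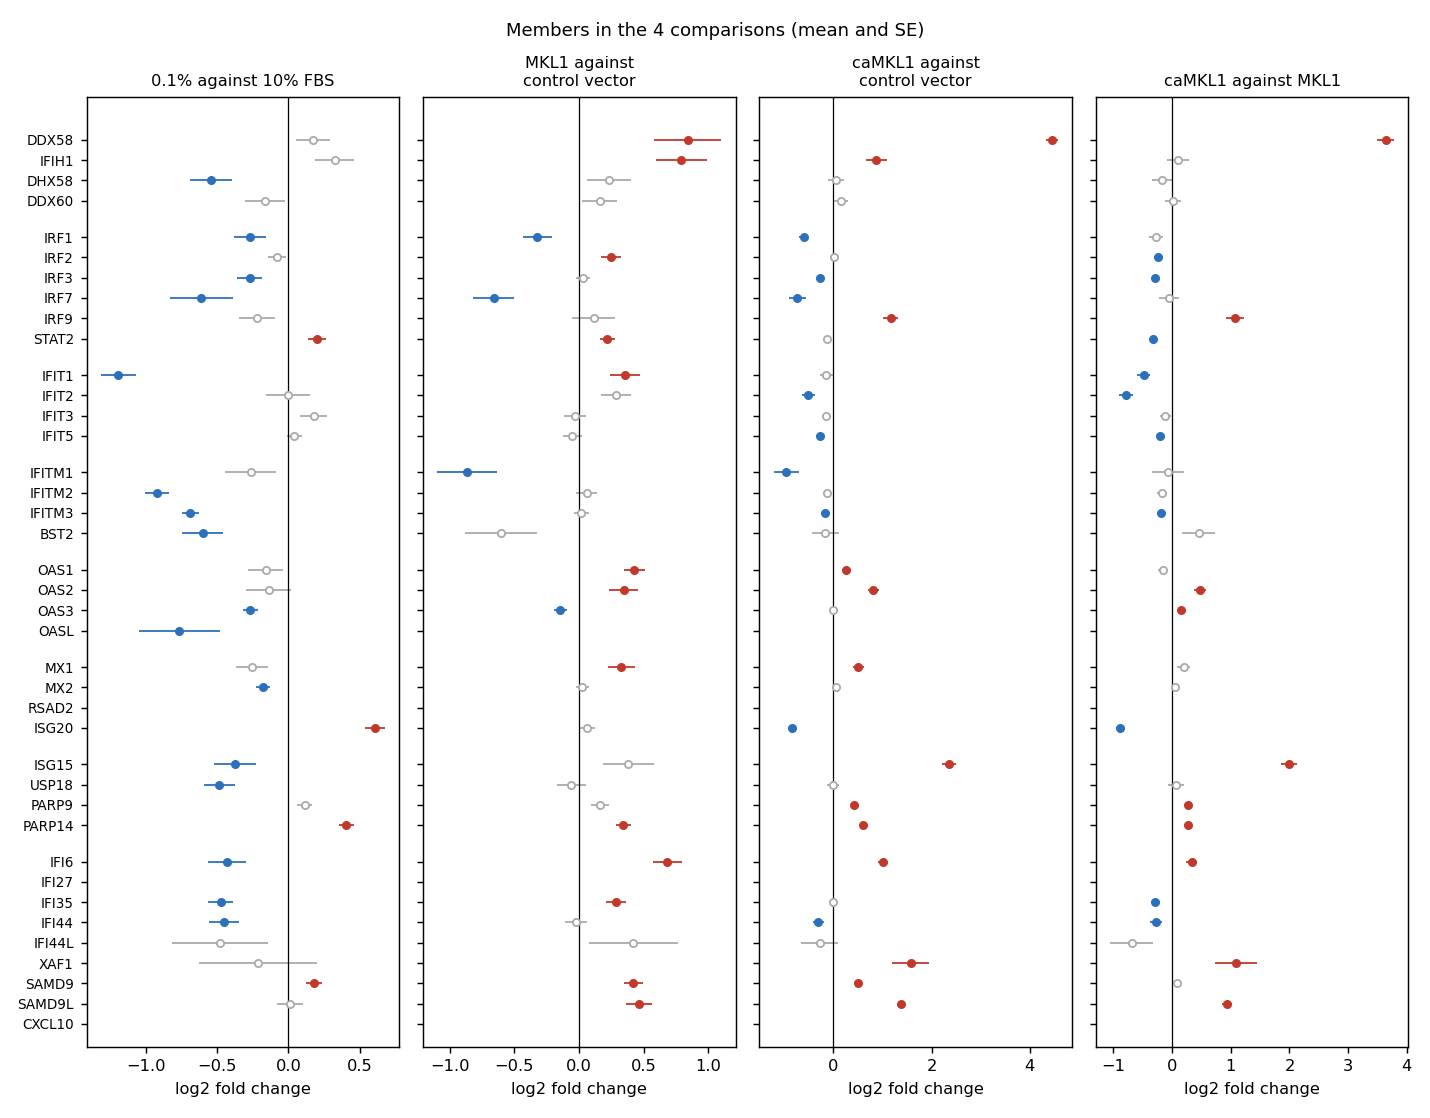
Log2 fold changes of the tested members in the 4 comparisons (points, estimate; bars, SE; red higher and blue lower at adjusted p under 0.05, open grey not called), grouped by role; each panel has its own x axis. DDX58 (4.45) and ISG15 (2.36) stand apart from the other members in the caMKL1 panel, whereas IFIT1 (-1.19) marks the lower end of the starvation panel.

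A direct contrast of caMKL1 with MKL1, in a fit of all 9 overexpression libraries, tested which members differed between both forms. Of 35 members tested 10 were higher and 10 lower with caMKL1 (28.6% each), against 25.2% and 27.0% of 13720 genes, a share of 57.1% in either direction beside 52.2% of all genes, and the median was -0.06 for members and -0.02 for all genes. The groups did not overlap in 24 members, against 61.4% of all genes. DDX58 (3.64 ± 0.147), ISG15 (1.99 ± 0.137) and IRF9 (1.07 ± 0.148) met the definition of a strong difference, SAMD9L (0.93 ± 0.0848) lay just outside it, and IFI6 differed less (0.33 ± 0.0977). A called log2 fold change of at least 1 was found for 5.78% of all genes, and one of -1 or less for 1.02% of all genes and no member. OAS2 (0.48), OAS3 (0.15), PARP9 (0.27), PARP14 (0.27) and XAF1 (1.09) were also higher with caMKL1. Lower were ISG20 (-0.88), IFIT2 (-0.79), IFIT1 (-0.48), STAT2 (-0.32), IRF3 (-0.29), IFI35 (-0.29), IFI44 (-0.27), IRF2 (-0.23), IFIT5 (-0.20) and IFITM3 (-0.18). For IFIH1, which was higher than the control with either form, the forms did not differ detectably (0.10 ± 0.190, adjusted p = 0.691, quasi-likelihood F test of edgeR). Without caMKL1 replicate 3 the number of lower members was 6, IFIT5, IFITM3, IFI44 and IRF2 being lost (-0.21 to -0.14). The IFI6 call was lost without MKL1 replicate 3 (0.25) and that of XAF1 without MKL1 replicate 3 (0.84) or caMKL1 replicate 1 (0.98), and those of XAF1 and IFI44 were lost with DESeq2 (adjusted p = 0.116 and 0.105). IRF2 was also lost without MKL1 replicate 1 or caMKL1 replicate 1 (-0.18 each), IFITM3 without MKL1 replicate 1 or caMKL1 replicate 2 (-0.14 and -0.15), IFIT5 without MKL1 replicate 2 or 3 or caMKL1 replicate 2 (-0.21 to -0.16) and IFI44 without MKL1 replicate 1 or 2 (-0.23 and -0.28). OAS3 was lost with library totals (0.08), where all genes split into 2750 higher and 4942 lower against 3463 and 3701 with TMM scaling.

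Serum starvation lowered more members than it raised. Of 36 members tested 16 fell and 4 rose (44.4% and 11.1%), against 31.4% lower and 31.2% higher of the 13307 genes tested, and the median log2 fold change was -0.24 for members and near 0 (-0.004) for all genes. In either direction 55.6% of members passed against 62.6% of all genes, and 22 members had groups that did not overlap, against 67.1% of all genes. IFIT1 was the only member with a called log2 fold change of 1 or more in size, against 2.75% of all genes that were this much lower and 4.75% that were this much higher. IFIT1, which binds RNA lacking the host cap mark, read 11.0, 11.4 and 10.6 CPM in 10% FBS, and 4.45, 5.27 and 4.70 CPM in 0.1% FBS. These groups were far apart, with a log2 fold change of -1.19 ± 0.122 (adjusted p = 9.90e-07, quasi-likelihood F test of edgeR). The other IFIT genes did not follow: IFIT2 (-0.0003), IFIT3 (0.18) and IFIT5 (0.04) did not pass.

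Of the 4 membrane restriction factors 3 fell in 0.1% FBS. IFITM3 read 179, 198 and 167 CPM in 10% FBS, and 114, 111 and 113 CPM in 0.1% FBS (-0.69 ± 0.0574). IFITM2 (28.5, 28.0 and 23.8 against 14.2, 14.1 and 14.2 CPM; -0.92 ± 0.0872) and BST2 (-0.60 ± 0.144) fell as well, and IFITM1 did not pass (-0.26). Of the sensors DHX58 fell (-0.54 ± 0.149), and DDX58 (0.17), IFIH1 (0.32, adjusted p = 0.0511, quasi-likelihood F test of edgeR) and DDX60 (-0.16) did not pass. IFI35 (-0.47 ± 0.0895; 24.5 to 28.4 against 17.6 to 21.6 CPM), IFI44 (-0.45 ± 0.105), USP18 (-0.48 ± 0.108), IFI6 (-0.43 ± 0.133), OAS3 (-0.27 ± 0.0519) and MX2 (-0.18 ± 0.0503) fell in every alternative. Rising members were ISG20, from 26.8, 29.9 and 28.5 CPM to 43.0, 46.2 and 40.3 CPM (0.61 ± 0.0699), PARP14 (0.41 ± 0.0528), STAT2 (0.20 ± 0.0633) and SAMD9 (0.18 ± 0.0563). ISG20, higher in 0.1% FBS and lower with caMKL1, had groups that did not overlap in either comparison.

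Some starvation calls did not hold in every alternative. Fits that leave out 1 library hold fewer libraries, so a call near the threshold can be lost at a similar fold change. IRF3 (-0.27) was lost without 10% FBS replicate 2 (-0.17) or 0.1% FBS replicate 1 (-0.25), STAT2 without 0.1% FBS replicate 2 (0.16) and SAMD9 without 0.1% FBS replicate 1 (0.14). IRF7 (-0.61) was lost without 10% FBS replicate 2 (-0.38), 0.1% FBS replicate 1 (-0.59) or 0.1% FBS replicate 3 (-0.49). IRF1 (-0.27) was lost without 10% FBS replicate 1 or 2 or 0.1% FBS replicate 1 or 3 (-0.26 to -0.23), OASL (-0.76; 2.06, 2.22 and 1.79 against 1.60, 1.20 and 0.712 CPM) without 10% FBS replicate 1 or 2 or 0.1% FBS replicate 2 or 3 (-0.77 to -0.53), and ISG15 (-0.38; 4.58 to 5.11 against 3.68 to 3.92 CPM) without any 1 library but 10% FBS replicate 1 (-0.40 to -0.35). IRF1, IRF7, OASL and ISG15 did not pass with DESeq2 (adjusted p from 0.0687 to 0.179). IRF1 and ISG15 were also lost with library totals (adjusted p = 0.0810 and 0.0563), and IRF1 without the filter on low counts (adjusted p = 0.0550). Members that did not pass were, beside those named, IRF2 (-0.08), IRF9 (-0.22), OAS1 (-0.16), OAS2 (-0.14), MX1 (-0.26), PARP9 (0.11), IFI44L (-0.48), XAF1 (-0.21) and SAMD9L (0.01).

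**Figure D4:**
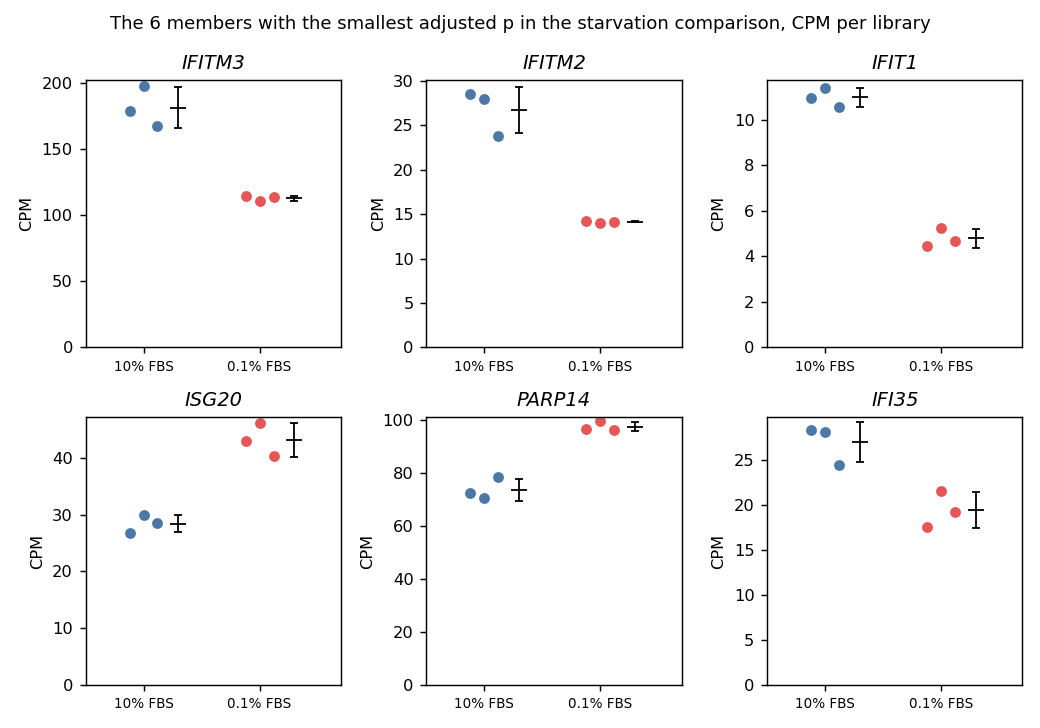
CPM per library in 10% and 0.1% FBS of the 6 members with the smallest adjusted p in the starvation comparison (points, 3 libraries per group; bars, mean and SD). IFITM3, IFITM2, IFIT1 and IFI35 lie lower in every 0.1% FBS library, and ISG20 and PARP14 lie higher, without overlap in any panel.

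Across the 4 comparisons, 3 members that were tested each time passed in none: DDX60, IFIT3 and IFI44L. IFI6 and PARP14 passed in all 4. Of all genes, 62.6% passed in starvation, 31.2% with MKL1, 63.6% with caMKL1 and 52.2% for caMKL1 against MKL1. The shares of all genes that passed in all 4 or in none were not computed, so these members are named as a description only. IFI6 was lower in 0.1% FBS, higher with MKL1 and with caMKL1, and higher with caMKL1 than with MKL1, whereas PARP14 was higher in each. The MKL1 and caMKL1 comparisons share their control libraries, and the contrast of caMKL1 with MKL1 uses the same libraries again. Values of a member in these comparisons are therefore not independent.

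Of the interferon genes in the list, IFNE, a type I interferon gene, was detected in all 15 libraries. It read 1.59, 1.32 and 1.67 CPM in 10% FBS against 2.73, 3.11 and 2.49 CPM in 0.1% FBS, a rise of 0.87 ± 0.216 on the log2 scale. With the control vector it read 1.04, 0.819 and 0.837 CPM, with MKL1 1.40, 1.25 and 1.11 CPM, which did not pass (0.50), and with caMKL1 1.22, 1.61 and 2.04 CPM, which passed (0.83 ± 0.271). No count was recorded for IFNB1, IFNL1, IFNL2, IFNL3 or IFNG in any of the 15 libraries, which allows levels up to 0.125 to 0.215 CPM per library. IFNA1 had 2 counts or fewer in each library. CGAS, the DNA sensor, also had 2 counts or fewer in each library. STING1, the adaptor downstream of it, was at 31.8 to 35.5 CPM in 10% FBS and at 27.0 to 33.0 CPM with the control vector. It fell with caMKL1 (-0.21 ± 0.0777), to 24.8 to 26.9 CPM, close to the lowest control vector library. MAVS, the adaptor of RIG-I and MDA5, rose in 0.1% FBS (0.51 ± 0.0433) and did not pass with MKL1 (0.11) or caMKL1 (0.09). Of 22 genes of nucleic acid sensing and interferon production 15 were tested; 5 rose and 2 fell in 0.1% FBS, 1 rose and 1 fell with MKL1, and 4 rose and 4 fell with caMKL1. These are 46.7%, 13.3% and 53.3% of those tested, against 62.6%, 31.2% and 63.6% of all genes. DESeq2 called 7, 1 and 4 genes of this list, against 7, 2 and 8 with edgeR. Calls of single genes outside the members are those of edgeR alone. The RNA sensor gene TLR3 rose with caMKL1 (1.12 ± 0.0832), and RNF135, a ubiquitin ligase that activates RIG-I, fell (-0.52 ± 0.0758).

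Of 13 genes of interferon signalling 12 were tested. In 0.1% FBS 5 rose and 2 fell, with MKL1 none rose and 2 fell, and with caMKL1 2 rose and 4 fell, which are 58.3%, 16.7% and 50% of those tested beside the same shares of all genes. SOCS3, a feedback inhibitor of cytokine receptors, fell in each of these, with log2 fold changes of -0.95 ± 0.143 in 0.1% FBS, -0.87 ± 0.0837 with MKL1 and -1.75 ± 0.106 with caMKL1. JAK2 (0.70 ± 0.0932) and the receptor gene IFNAR1 (0.37 ± 0.0523) rose in 0.1% FBS, and the receptor gene IFNGR2 fell with caMKL1 (-0.36 ± 0.0569).

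A list of 30 further interferon-stimulated genes also held changes in both directions. In 0.1% FBS 3 of 28 tested rose and 11 fell, with MKL1 10 of 29 rose and 2 fell, and with caMKL1 13 of 29 rose and 5 fell. In either direction these are 50%, 41.4% and 62.1%, again beside 62.6%, 31.2% and 63.6% of all genes. With caMKL1 44.8% were higher and 17.2% lower, against 30.5% and 33.1% of all genes. The MKL1 shares were 34.5% and 6.9%, against 15.8% and 15.4%. In 0.1% FBS they were 10.7% and 39.3%, against 31.2% and 31.4%. In that order the list medians were 0.24, 0.16 and -0.14 on the log2 scale, against -0.02, 0.01 and -0.004 for all genes. DESeq2 called 9 genes of the list in 0.1% FBS, 7 with MKL1 and 16 with caMKL1, against 14, 12 and 18 with edgeR. GBP1, an interferon-induced GTPase, had the smallest p with caMKL1: it read 6.08, 6.55 and 7.24 CPM (control vector), 21.2, 23.3 and 23.4 CPM (MKL1) and 177, 194 and 181 CPM (caMKL1). The 3 groups were well apart, with log2 fold changes of 1.79 ± 0.0893 and 4.79 ± 0.0691 and, for caMKL1 against MKL1, 3.02 ± 0.0577. TAP1, the peptide transporter of antigen presentation (1.28 ± 0.0551), and TDRD7 (0.97 ± 0.0749) rose with caMKL1, and LY6E fell (-0.41 ± 0.0423). In 0.1% FBS the fallers included TRIM14 (-0.55 ± 0.0580) and UBE2L6, an enzyme of ISG15 conjugation (-0.51 ± 0.0601), and DTX3L, the partner of PARP9 (0.44 ± 0.0522), and SP100 (0.46 ± 0.0556) rose.

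Markers of other cell types were read beside the set. The summed level of 11 leukocyte markers was 28.8 to 34.9 CPM with the control vector, 50.01 to 54.2 CPM with MKL1 and 66.1 to 72.8 CPM with caMKL1. It was thus higher with MKL1 and with caMKL1 than with the control vector. Most of the sum was CD68, a lysosomal protein gene, which went from 20.2 to 27.4 CPM with the control vector to 56.1 to 61.8 CPM with caMKL1. LYZ, the lysozyme gene, was at 6.76 to 10.1 CPM in the overexpression libraries and did not pass with caMKL1 (0.14). IL3RA rose from 0 to 0.135 CPM with the control vector to 0.977 to 1.36 CPM with caMKL1 (3.86 ± 0.518), and CD14, at 0.628 CPM or less, fell (-1.25). In these libraries PTPRC was at 0.145 CPM or less, CD3D at 0.0574, CD3E at 0.0901 and NKG7 at 0.0977 CPM or less. MS4A1 and CLEC4C had no count in any of the 15 libraries. In the serum groups the sum was 45.3 to 49.3 CPM in 10% FBS and 44.6 to 47.6 CPM in 0.1% FBS, and PTPRC read 0.320 to 0.601 and 0.854 to 1.20 CPM. The sum of 5 fibroblast markers was 9.83 to 10.1 CPM with the control vector, 13.5 to 16.45 CPM with MKL1 and 18.6 to 20.1 CPM with caMKL1, and 18.96 to 21.6 and 17.9 to 21.6 CPM in 10% and 0.1% FBS. The sum of 5 epithelial markers was 228 to 234.5 CPM with the control vector, 205 to 228 CPM with MKL1 and 168 to 173.5 CPM with caMKL1, and went from 389.5 to 441 CPM in 10% FBS to 197 to 206 CPM in 0.1% FBS. The sum of 11 melanoma markers was 1505 to 1585, 1521 to 1614 and 1304 to 1414 CPM in the overexpression groups, and 1023 to 1153 and 839 to 878 CPM in 10% and 0.1% FBS. Single markers could move in opposite directions under these sums. In 0.1% FBS the log2 fold changes of tested markers ran from -2.42 to 2.63 (fibroblast), -2.07 to -0.82 (epithelial) and -1.24 to 1.55 (melanoma). With caMKL1 they ran from -0.12 to 1.91, -0.59 to 0.84 and -2.66 to 0.43 in the same order. What part any of these markers has in the results was not tested.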

How the data were processed

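Per the labels' protocols, RNA was taken up in Trizol, selected by oligo(dT) and built into libraries by a NEBNext Ultra kit. GRCh38, RSEM, StringTie 1.3.1, DESeq2, HISAT2 2.2.4 and Bowtie2 2.2.8 are named, without roles, in the submitters' processing notes. The deposited counts per gene are whole numbers, per the file headers counts, and may be rounded RSEM estimates. The deposited FPKM per library were used for levels, and the authors' mean FPKM, log2 fold changes and p-values were not used. Counts were fitted over all genes with edgeR 4.0.16 in R 4.3.3 (TMM, filterByExpr, quasi-likelihood test, two-sided, Benjamini-Hochberg, threshold 0.05), on the 6 libraries of each pair of groups, or on 9 for caMKL1 against MKL1. SE was taken as the size of the log2 fold change over the root of its F statistic. CPM per library use TMM factors over the 6 serum or 9 overexpression libraries. The code was tested on simulated counts with 200 genes changed. DESeq2 1.42.0 served as an alternative, beside library totals, other filters, a replicate block and leaving out each library. Per-library values are given for strong risers and fallers, for the member with the highest FPKM of each role, and for members whose call differs between edgeR and DESeq2; further members were shown after their values were seen. Of other lists, up to 4 genes per comparison are named by smallest p; some genes that this rule covers are not reported here. The members and lists were chosen with earlier results of these data known. Coordinates and overlaps come from GENCODE 29. Limits from 3 counts cover counting error only. No 2 replicates agreed within sampling noise (lowest chi-square per degree of freedom 1.79).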

Additional observations from a re-analysis of the deposited data

How the results depend on the processing

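Of 979 values for named members under the alternatives, 867 kept their direction and side of the threshold, 86 lost and 9 gained a call, and 17 changed sign. The sign changes were in members that were not called and lay near 0. Leaving out 1 library gave ranges that crossed 0 in starvation for OAS2 (-0.27 to 0.0631), XAF1 (-0.48 to 0.0770) and SAMD9L (-0.0778 to 0.0632). In the MKL1 comparison these were IRF9 (-0.0186 to 0.21), IFITM3 (-0.0307 to 0.0893) and IFI44 (-0.0781 to 0.0143), and with caMKL1 they were OAS3 (-0.0527 to 0.0547) and IFI35 (-0.0727 to 0.0126). With 9 libraries in 1 fit IFITM3 was at -0.000342 with MKL1, and with library totals IFI44 was at 0.00492; the cause was not tested. Leaving out 1 library, the genes called with MKL1 ranged from 2595 to 4094 around 4182, members higher from 7 to 11 around 13 and members lower from 2 to 4 around 4, and members lower with caMKL1 against MKL1 from 6 to 11 around 10; fewer libraries enter these fits. With library totals 2 members fell with MKL1. The block on replicate number called 8668 genes in starvation, 4569 with MKL1, 8710 with caMKL1 and 7396 for caMKL1 against MKL1. Members called lower in starvation went from 16 to 14 with the block, IRF1 and ISG15 being lost (adjusted p = 0.0531 each, edgeR). Deviations of same-numbered libraries correlated between -0.0624 and 0.112. With so few libraries per group these values do not settle whether the numbers pair the samples. Summing both identifiers of DDX58 and IFITM1, an alternative chosen after seeing the data, left the counts of members as they were. At 13937251 to 23957043 counts per library, members under about 1 CPM, such as RSAD2, IFI27, CXCL10, OASL and XAF1, were measured from few counts.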
